A study of Homo sapiens with 4 samples.

Results

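H3K4me3 and WDR5 peaks were examined at 10 genes that encode transcription factors of blood stem and progenitor cells: RUNX1, RUNX2, RUNX3, GATA1, GATA2, GATA3, TAL1, LMO2, ERG and ETV6. The genes were taken by symbol from the gene column of the 4 peak files, which together name 18576 genes. All 10 were named in both H3K4me3 files. The RS4;11 file held 43 H3K4me3 peaks at these genes out of 24212, and the THP-1 file held 29 out of 26523. Of the WDR5 peaks, 1 of 703 in RS4;11 and 0 of 225 in THP-1 cells lay at a member. The ChIP-seq data cover 2 untreated human leukemia cell lines grown in the same medium, RS4;11 (B-cell precursor acute lymphoblastic leukemia) and THP-1 (monocytic acute myeloid leukemia), with 1 sample per antibody and line and no replicates. Both lines carry a rearranged MLL gene, so neither is a normal progenitor cell, and each stands for 1 patient's leukemia. In the labels the cell type contradicts the line for 2 samples (THP-1 WDR5 is called lymphoblastic, RS4;11 H3K4me3 myeloid), so samples were placed by the line they name.

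H3K4me3 is a histone methylation found at active or poised transcription start sites, and WDR5 is a core subunit of the MLL and SET1 complexes that write it. The RUNX proteins bind DNA together with CBFB, the GATA factors bind through zinc fingers, and ERG and ETV6 belong to the ETS family. TAL1 pairs with E proteins such as TCF3, and LMO2 bridges TAL1 to LDB1 and the GATA factors without binding DNA itself. Many of these genes have alternative start sites that are used in different blood lineages, and several are targets of translocations in leukemia.

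The stretches below show start regions at which the lines differed or agreed and the single member site of WDR5. They were read from GRCh37, whose coordinates are those of hg19, and each of the first 4 is the 150 bases just upstream of the most 5′ annotated start of the gene, on the gene's strand. Capitals mark, on either strand, the letters of the GATA motif, AGATAA, those of the RUNX motif, TGTGGT, or those of the ETS motif, GGAAGT, wherever they occur.
GATA2, chr3:128212045-128212194, minus strand, peak in RS4;11 only: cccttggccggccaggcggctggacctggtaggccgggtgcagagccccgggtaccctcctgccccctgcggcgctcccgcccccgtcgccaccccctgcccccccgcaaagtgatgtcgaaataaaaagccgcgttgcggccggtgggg
ERG, chr21:40033705-40033854, minus strand, peak in THP-1 only: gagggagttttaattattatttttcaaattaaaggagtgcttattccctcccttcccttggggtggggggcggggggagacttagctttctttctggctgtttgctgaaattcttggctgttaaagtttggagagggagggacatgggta
RUNX3, chr1:25291613-25291762, minus strand, peak in both lines: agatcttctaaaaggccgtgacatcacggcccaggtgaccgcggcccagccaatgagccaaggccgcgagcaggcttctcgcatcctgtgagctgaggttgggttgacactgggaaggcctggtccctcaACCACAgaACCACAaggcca
TAL1, chr1:47697898-47698047, minus strand, peak in both lines: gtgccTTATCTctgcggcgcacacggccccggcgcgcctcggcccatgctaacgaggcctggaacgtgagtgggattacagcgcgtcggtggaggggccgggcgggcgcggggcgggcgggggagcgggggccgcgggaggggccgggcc
ETV6, chr12:11801974-11802273, plus strand, the central 300 bases of the WDR5 peak: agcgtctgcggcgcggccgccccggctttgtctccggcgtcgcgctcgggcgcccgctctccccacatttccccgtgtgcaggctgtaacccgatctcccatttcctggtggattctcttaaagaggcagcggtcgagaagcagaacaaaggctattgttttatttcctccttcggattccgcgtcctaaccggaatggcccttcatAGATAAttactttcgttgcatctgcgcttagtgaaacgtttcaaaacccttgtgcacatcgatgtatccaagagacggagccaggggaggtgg
The RUNX3 stretch held 2 matches to the RUNX letters close to the start, and the TAL1 stretch held 1 match to the GATA letters. That TAL1 match lay at the end of the stretch farthest from the start. The RS4;11 peak over the TAL1 start ended short of it, at chr1:47697941. The THP-1 peak covered it and ended at chr1:47698417. The GATA2 and ERG stretches held none of these 3 motifs. The GC content was 74.0% upstream of GATA2 and 78.7% upstream of TAL1, against 46.0% upstream of ERG.

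What the peak lists can show is limited by how wide their peaks are. The median width of all H3K4me3 peaks was 1391 bp in RS4;11 and 1241 bp in THP-1 cells, the widest were 4478 and 4446 bp, and no peak exceeded 4500 bp. The lists also left the starts of some widely expressed genes uncovered. Of 13 such genes, 8 had no start under a peak in either line, ACTB, GAPDH and B2M among them. Of all protein-coding genes, 34.5% had none. The 13 were chosen after the files had been seen, so their count does not measure how many active starts the lists miss. A start without a listed peak is therefore reported as uncovered and not as unmarked, and the part of this limit in the results was not tested. The marker lists did not separate the lines cleanly. In RS4;11 cells, 4 of 8 B-cell precursor genes had a start under an H3K4me3 peak, and 5 of the 8 had one in THP-1 cells. For 8 monocytic genes the counts were 5 and 6, for 4 T-cell genes 0 and 0, and for 5 erythroid and megakaryocytic genes 1 and 1. Over all protein-coding genes, 47% had a covered start in both lines, 6.36% in RS4;11 cells only and 12.1% in THP-1 cells only. CD79A was covered only in RS4;11 and ITGAM only in THP-1 cells, but PAX5 and EBF1, which define B cells, were covered only in THP-1 cells. Of the progenitor markers, CD34 was covered in both lines and KIT, PROM1 and FLT3 in THP-1 cells only. These markers did not verify the line of either H3K4me3 file, and the label of the RS4;11 H3K4me3 sample gives a myeloid type. The direction of every difference between the lines below therefore rests on the line named in the labels.

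**Figure D1:**
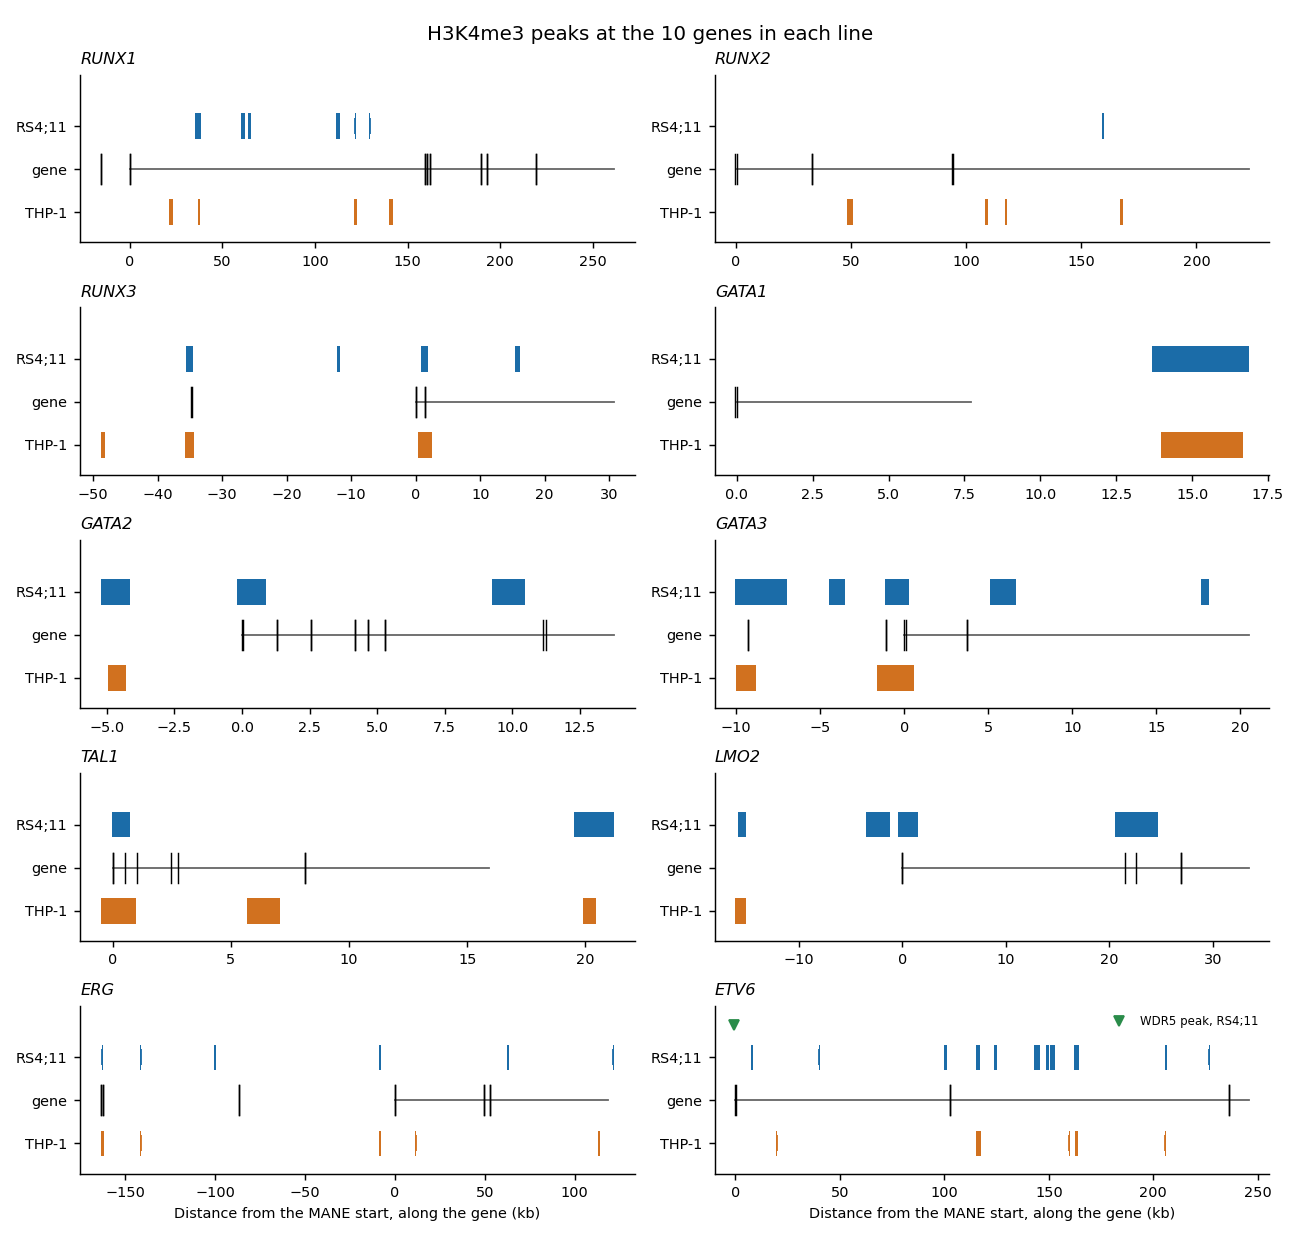
H3K4me3 peaks at the 10 genes, with distance from the MANE start along the gene in kb on the horizontal axis and the line on the vertical axis. Colored blocks are peaks drawn to scale, with a thin line at the center of each. The gray line is the MANE transcript and the green triangle is the WDR5 peak. Black ticks are the first and last annotated starts of each group of starts joined within 500 bp of a neighbor. Other starts, and 4 RUNX1 starts far upstream, have no tick. RUNX1, RUNX2 and ETV6 have peaks along their bodies and none over a start, while 5 of the 6 LMO2 starts lie under RS4;11 peaks and none under a THP-1 peak.

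The peaks at the 10 genes lay mostly inside introns, away from starts. In the authors' flags, 28 of the 43 RS4;11 peaks (65.1%) lay in an intron only, against 33.5% of all RS4;11 peaks. In THP-1 cells 15 of 29 (51.7%) did, against 30.2% of all. A start of the member itself, in GENCODE release 44, lay inside 8 of the 43 RS4;11 peaks and 6 of the 29 THP-1 peaks. Over all peaks, 38.2% (RS4;11) and 39.4% (THP-1) held a start of a gene that they were assigned to. That measure is wider than the one for the members, since it would also count starts of HDAC6 and SUPT3H in peaks assigned to GATA1 and RUNX2. These are shares of peaks in 1 sample per line. The peaks of 1 gene are not independent, and genes with long introns can hold more of them. The MANE transcripts, the representative transcript of each gene in the annotation, spanned 7721 bp at GATA1 to 261502 bp at RUNX1. Whether gene length played a part in these shares was not tested.

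ETV6 had the most peaks in RS4;11 cells and RUNX2 and GATA1 the fewest. The median member had 4 peaks and 4516 bp under peaks in RS4;11 cells and 3 peaks and 3800 bp in THP-1 cells, where the median over all genes named was 2 peaks in each line, with 3441.5 and 3503 bp. Scaled to length, the picture was less uniform. All peaks assigned to a gene were divided by the length of its MANE transcript and 20 kb flanks. Peaks outside that window, such as those near the distal ERG starts, were thus counted too. RS4;11 cells had 8.26 peaks per 100 kb at GATA3, 3.85 at ETV6 and 0.38 at RUNX2, against a median of 2.28 over 14566 genes. In THP-1 cells TAL1 was the highest at 5.36 and RUNX1 the lowest at 1.33, against a median of 2.47. Per length, ETV6 thus stood above 69.3% of genes in RS4;11 cells and above 30.7% in THP-1 cells, although by number of peaks it stood above 99.5% and 90.7%.

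**Figure D2:**
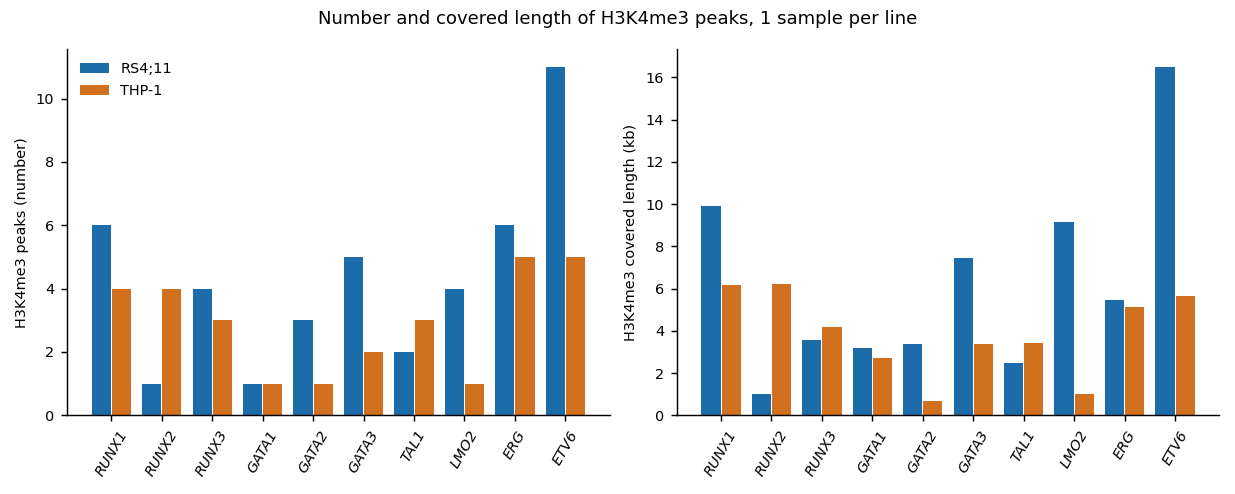
Number of H3K4me3 peaks (left) and length under them in kb (right) for each gene, with blue bars for RS4;11 and orange bars for THP-1 and 1 sample per line, so no error bars. ETV6 has 11 and 5 peaks, LMO2 9171 and 1027 bp, and RUNX2 1025 and 6212 bp.

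The length under H3K4me3 peaks was at least 2-fold larger in RS4;11 cells at 4 of the 10 genes, GATA2, GATA3, LMO2 and ETV6, against 11.1% of the 18494 genes named in either file. It was at least 2-fold larger in THP-1 cells at RUNX2 alone, against 17.1% of those genes. Ratios are of bp under peaks plus 500 bp, and with 1 sample per line they carry no replicate check. LMO2 had the largest ratio, 6.33-fold (log2 2.66), above 98.3% of genes, except with only peaks of at least 1000 bp kept, where GATA2 (log2 2.95) passed LMO2 (log2 2.55). RUNX2 had the largest in the other direction, a log2 ratio of -2.14, below which lay 5.86% of genes. GATA3 was close to the limit at 2.06-fold, and it fell under it when only peaks of at least 1000 bp were kept, when 1000 bp were added in place of 500 bp, and when peaks assigned to another gene as well were left out. GATA1, GATA2 and GATA3 had no peak left in either line under that last setting, so their log2 ratios were 0.00 there. RUNX3, GATA1, TAL1 and ERG differed by at most 1.32-fold, and RUNX1 by 1.55-fold. Past the 2-fold limit came TAL1 with only peaks on the gene body (log2 -1.44) and RUNX1 without peaks assigned to another gene (log2 1.15).

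In all, the peaks of both lines merged into 55 places, of which 17 were covered in both lines, 26 in RS4;11 cells only and 12 in THP-1 cells only. The 17 overlaps made up 39.5% of the RS4;11 peaks (95% Wilson interval 26.4 to 54.4, counting error only) and 58.6% of the THP-1 peaks (40.7 to 74.5). These intervals treat peaks as independent, which peaks of 1 gene are not. Over all peaks, 55.8% (RS4;11) and 51.8% (THP-1) overlapped a peak of the other line. Of the peaks on a member's own start, 5 of 8 in RS4;11 and 6 of 6 in THP-1 cells were shared. Of all peaks on a start of any gene they were assigned to, 85.9% and 74.8% were. Away from the member's starts, 12 of 35 (34.3%) and 11 of 23 (47.8%) were shared. Of all peaks that held no start of a gene they were assigned to, 37.3% and 36.9% were. The shared peaks were wider in RS4;11 cells at 8 places and in THP-1 cells at 9, with ratios from 0.19 at the distal ERG start to 3.85 at a RUNX1 intron. Genome-wide, 52.7% of 13179 peaks that paired 1 to 1 were wider in RS4;11 cells.

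**Figure D3:**
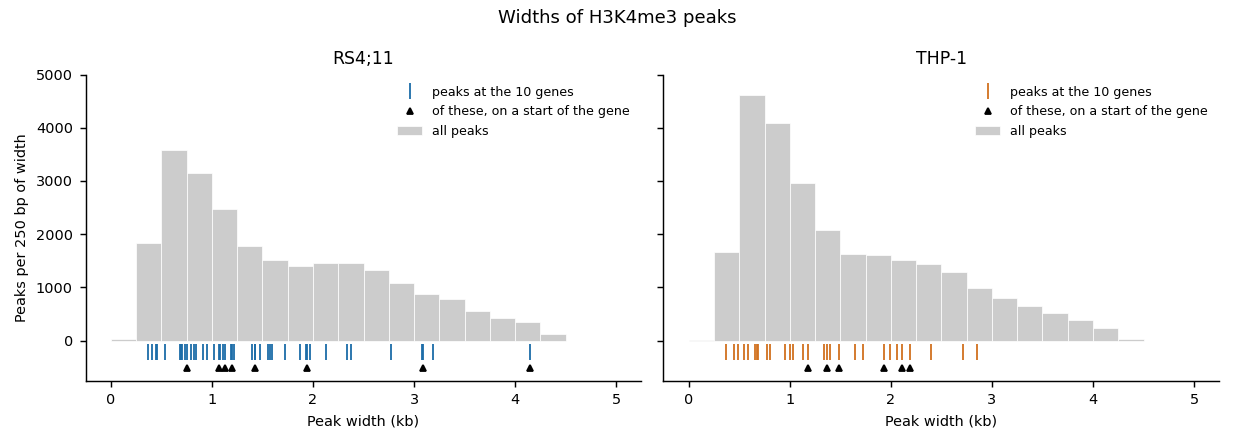
Widths of all H3K4me3 peaks (gray bars, peaks per 250 bp of width) with the peaks at the 10 genes as colored ticks and those on a start of the gene as black triangles, RS4;11 left and THP-1 right. Member peaks run from 370 to 4150 bp in RS4;11 cells and from 371 to 2854 bp in THP-1 cells, and both distributions stop below 4500 bp.

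The 10 genes have 78 distinct annotated starts, which form 46 groups when starts within 500 bp of a neighbor are joined. Of the starts, 17 lay under an H3K4me3 peak in RS4;11 cells, in 10 of the groups, and 12 in THP-1 cells, in 9 of the groups. At least 1 start was covered in both lines at 3 genes (RUNX3, GATA3 and TAL1), against 47% of protein-coding genes, in RS4;11 cells only at 2 (GATA2 and LMO2), against 6.36%, and in THP-1 cells only at 1 (ERG), against 12.1%. The remaining 4 (RUNX1, RUNX2, GATA1 and ETV6) had no covered start in either line, against 34.5% of protein-coding genes. The MANE start was covered at 4 members in RS4;11 and 2 in THP-1 cells, against 50.1% and 53.9% of genes. By the authors' flags on 23 transcripts, 4 and 3 members had a covered start, since those flags place the TAL1 peak upstream of the gene while GENCODE starts TAL1 transcripts inside it.

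**Figure D4:**
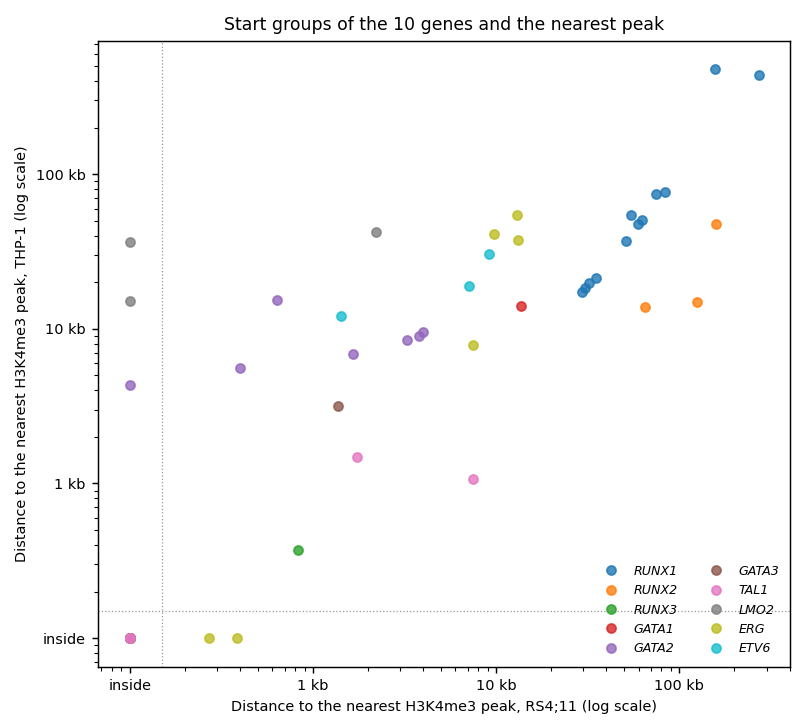
Distance from each of the 46 start groups to the nearest H3K4me3 peak in RS4;11 (horizontal) and THP-1 (vertical), on log axes whose lowest mark holds groups with a start inside a peak. LMO2 and GATA2 points on the left edge are covered in RS4;11 only, ERG points on the lower edge in THP-1 only, and RUNX1 points lie more than 10 kb from a peak in both lines.

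RUNX1, the factor required for the first definitive blood stem cells, is transcribed on chromosome 21 from a distal start (36421567 to 36421641) and a proximal one at 36260987. Neither was covered in either line. The nearest peak to the distal start was 35314 bp away in RS4;11 and 21377 bp in THP-1 cells, and for the proximal start the distances were 30686 and 18355 bp. In the intronic sequence between these starts lay all 6 RS4;11 peaks and all 4 THP-1 peaks. A peak at chr21:36299627-36300159 in RS4;11 cells was 533 bp wide and lay within a THP-1 peak of 1340 bp. The reverse held near chr21:36383175-36386253, where the RS4;11 peak was 3079 bp wide and the THP-1 peak 800 bp. The other 4 RS4;11 peaks had widths of 681 to 2129 bp and no counterpart, and 2 THP-1 peaks of 2056 and 1989 bp had none either. The THP-1 peak of 1989 bp was also assigned to C21orf96, and without it the log2 ratio of RUNX1 was 1.15.

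RUNX2, known for bone formation, had 1 intronic peak of 1025 bp in RS4;11 cells and 4 peaks of 589 to 2854 bp in THP-1 cells, with none shared. Its distal starts (chr6:45295894-45296464) lay 158537 bp from the nearest peak in RS4;11 and 47865 bp in THP-1 cells, and its proximal starts (45389773 to 45390314) 64687 and 13776 bp. The widest THP-1 peak, at chr6:45344329-45347182, also held a start of SUPT3H, a neighboring gene, and was assigned to both genes. Without it the log2 ratio of RUNX2 was -1.34.

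RUNX3, which acts in T-cell and myeloid development, kept both of its start-region peaks in both lines. At the distal start (chr1:25291501-25291612) the peak was 1203 bp in RS4;11 and 1366 bp in THP-1 cells, the former inside the latter. At the proximal promoter the peaks of 1125 and 2109 bp covered a start at 25255289 but ended 824 and 373 bp short of the MANE start at 25256767. RUNX3 was the only RUNX gene with a covered start, and its total length under peaks was 3572 and 4164 bp.

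GATA1, the erythroid and megakaryocytic factor, had 1 peak per line, 3189 bp in RS4;11 and 2714 bp in THP-1 cells, and neither was at the gene. Both lay downstream, 13682 and 13980 bp from the GATA1 starts (chrX:48644948-48644998), and held starts of HDAC6, to which they were also assigned. The gene itself was thus without a listed H3K4me3 peak in either line.

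GATA2, which maintains stem cells, had 3 RS4;11 peaks of 1067 to 1216 bp and a single THP-1 peak of 659 bp. The distal start (chr3:128212016-128212044) was covered in RS4;11 cells by the peak at chr3:128211150-128212216, while the nearest THP-1 peak was 4310 bp away. A site upstream of the gene was marked in both lines, over 1077 bp and 659 bp. A further RS4;11 peak over an exon, at chr3:128201559-128202774, lay 638 bp from the nearest start and was not seen in THP-1 cells. All these peaks were also assigned to DNAJB8 or to LOC90246, so GATA2 has none left once peaks assigned to more than 1 gene are set aside.

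GATA3, the factor of T helper and early lymphoid cells, had 5 peaks and 7470 bp in RS4;11 cells and 2 peaks and 3369 bp in THP-1 cells. Of its 5 starts on chromosome 10, 4 were covered in each line. The promoter peak over the MANE start at 8096651 was 1422 bp in RS4;11 and 2192 bp in THP-1 cells, so it was the narrower of the pair in the line with more peaks. At the upstream start (8087341) the order turned, with 3089 bp in RS4;11 and 1177 bp in THP-1 cells. The 3 peaks found only in RS4;11 cells, of 445 to 1559 bp, lay between these starts or in introns. All GATA3 peaks of both lines were also assigned to FLJ45983, so none is left once peaks assigned to more than 1 gene are set aside.

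TAL1, the basic helix-loop-helix factor at the head of the hematopoietic program, was covered at its starts in both lines. The peak at the MANE start (chr1:47697897) was 752 bp in RS4;11 and 1491 bp in THP-1 cells, and it held 2 of the 6 TAL1 starts in each. In both lines this peak was also assigned to STIL. Because the RS4;11 peak was under 1000 bp, TAL1 counted as covered in THP-1 cells only when narrower peaks were dropped. A peak downstream of the gene was wider in RS4;11 cells, 1722 bp against 550 bp. THP-1 cells had in addition a peak of 1395 bp at chr1:47690809-47692203, over an exon and 1061 bp from the start of a shorter transcript at 47689748.

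LMO2, the adaptor of the TAL1 complex, had covered starts in RS4;11 cells only. In RS4;11 cells the proximal starts (chr11:33891082-33892075) lay under a peak of 4150 bp at chr11:33888913-33893062, the widest at any of the 10 genes and close to the widest in the file. The distal MANE start at 33913623 lay under a peak of 1941 bp, and a peak of 2375 bp began 1167 bp upstream of that start. In THP-1 cells none of the 6 LMO2 starts was covered, and the nearest peak was 15128 bp from the distal and 36676 bp from the proximal starts. What the lines shared was a peak upstream of the gene, 705 bp in RS4;11 and 1027 bp in THP-1 cells.

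ERG, an ETS factor of stem cells and endothelium, had 6 peaks and 5460 bp in RS4;11 cells and 5 peaks and 5112 bp in THP-1 cells. The totals were alike, but the starts were not. At the distal starts (chr21:40032591 and 40033618 to 40033704) a THP-1 peak of 1928 bp held 3 starts. In RS4;11 cells a peak of 370 bp, the narrowest at any member in that line, fell between them, 272 bp from one and 386 bp from the other, so that ERG counted as covered in both lines when 500 bp around a start were allowed. The MANE start at 39870401 was covered in neither line, with a peak 7436 bp away in RS4;11 and 7817 bp in THP-1 cells that overlapped each other over 953 bp.

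ETV6, an ETS repressor needed for marrow hematopoiesis, had 11 peaks in RS4;11 and 5 in THP-1 cells, all intronic, covering 16502 and 5669 bp. Its main starts (chr12:11802608-11802945) were 7151 bp from the nearest H3K4me3 peak in RS4;11 and 19060 bp in THP-1 cells, and 2 later starts were uncovered as well. Of 13 places along the gene, 3 were covered in both lines, 8 in RS4;11 cells only and 2 in THP-1 cells only. The widest RS4;11 peak, 2772 bp at chr12:11945514-11948285, was followed by peaks of 1475 and 1970 bp, and none of the 3 had a THP-1 counterpart.

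The one WDR5 peak at a member was that of RS4;11 cells at ETV6, chr12:11801920-11802327, 408 bp wide. Of all genes named, 4.7% had a WDR5 peak in RS4;11 cells, beside 1 of these 10, and 1.7% in THP-1 cells, beside 0 of the 10. It ended 281 bp upstream of the ETV6 start, as the authors' flag also has it, and was assigned to no other gene. The nearest H3K4me3 peak of the same line was 7769 bp away, and the nearest in THP-1 cells 19678 bp. The peak sequence, shown in its central part above, had a GC content of 56.9%, 33 CpG dinucleotides and a ratio of observed to expected CpG of 1.01. It held 1 match each to AGATAA and TGTGGT and none to GGAAGT. Its letters also recurred closer to the gene: the runs ggctgtaacccga and atttcctggtgg were each found again 487 bp downstream, just before the start. For the other 9 genes the nearest WDR5 peak was 123217 bp (GATA2) to 3027122 bp (RUNX1) from the MANE transcript in RS4;11 cells, and for all 10 it was 489399 bp (TAL1) to 94126052 bp (GATA1) in THP-1 cells.

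Among 25 partners and relatives of these factors, a start was covered in both lines at 7 genes, in RS4;11 cells only at 2, in THP-1 cells only at 7 and in neither at 9. The shares over all protein-coding genes were 47%, 6.36%, 12.1% and 34.5%, in the same order. The 2 genes covered in RS4;11 cells only were ZFPM1, the GATA1 cofactor FOG1, and HHEX, a homeobox factor of early blood cells. Those covered in THP-1 cells only were LDB1, TCF3, TCF12, ZFPM2, GATA4, FLI1 and ETS1. LDB1 is a binding partner of LMO2, and TCF3 and TCF12 are E proteins that pair with TAL1. The E protein TCF4 was covered in both lines. LYL1, TAL2, LMO4, GATA5, ETS2, GFI1, KLF1, MYB and HLF were covered in neither. CBFB, the partner of all RUNX proteins, was covered in both lines. WDR5 peaks were assigned to LYL1, a close relative of TAL1, in RS4;11 cells and to MECOM, a stem-cell zinc finger factor, in THP-1 cells.

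Starts rich and poor in CpG were found on both sides, covered and uncovered. Within 500 bp of the MANE start, the ratio of observed to expected CpG ranged from 0.13 at RUNX2 to 0.95 at ETV6, with a median of 0.55 against 0.73 over 18922 promoters. The LMO2 distal start, covered in RS4;11 cells, had a ratio of 0.19, and the RUNX3 distal starts, covered in both, 0.48. The ETV6 start at 0.95, the RUNX1 proximal start at 0.95 and the RUNX2 proximal starts at 0.81 were uncovered in both lines. The ERG start at 40032591, covered in THP-1 cells, had 0.94. In the window from 250 bp before to 50 bp after the MANE start, searched on both strands, AGATAA was found at 2 members (ERG and TAL1; 7.1% of promoters), TGTGGT at 2 (RUNX1 and RUNX2; 10.5%), CANNTG, the E-box, at 7 (63.5%) and GGAAGT at 0 (24.3%). A match is a description of the letters in these windows.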

How the data were processed

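ChIP-seq of WDR5 and H3K4me3 was available for RS4;11 and THP-1 cells, 1 sample per antibody and line. Per the paper, chromatin was sonicated for WDR5 and digested with micrococcal nuclease for H3K4me3, whereas the labels give sonication for all. The authors aligned reads to hg19 and called peaks with MACS, and the submitters' processing notes name CASAVA 1.7 and 1.8.2. Each line of the deposited files joins a peak interval to a RefSeq transcript and its gene symbol, and flags whether the peak touches an exon, an intron or the 20 kb on either side. There are no counts, heights or p-values, so the depth is unknown, and peaks beyond 20 kb of every transcript are absent.

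Lines were reduced to distinct peaks, with width as end minus start plus 1. Starts came from protein-coding genes of GENCODE release 44 on GRCh37. Peaks sharing at least 1 bp overlapped. Length ratios added 500 bp. All 10 members are described. Values of 1 sample allow no test, and Wilson intervals cover counting error only. The members and lists were chosen with earlier results of these data known. Overlap code was tested on simulated data. Python 3.11.15, numpy 2.4.6, scipy 1.17.1 and matplotlib 3.10.9 were used. Upstream sequences are printed for 4 members, and the others are not reported here.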

Additional observations from a re-analysis of the deposited data

How the results depend on the processing

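Of 56 alternative values for 14 results, 47 stayed within 1.5 times the reported count or length, or within the Wilson interval of a share, and 9 did not. Keeping only peaks of at least 1000 bp left 28 of 43 peaks in RS4;11 and 18 of 29 in THP-1 cells, and the shared part fell to 25% and 38.9%. Leaving out peaks assigned to a second gene lowered the covered length in THP-1 cells from 38547 to 25471 bp. The genes at least 2-fold larger in RS4;11 cells were then RUNX1, LMO2 and ETV6. With only peaks on the gene body, 2 genes in place of 1 were at least 2-fold larger in THP-1 cells, TAL1 joining RUNX2, and no WDR5 peak was left (0 in place of 1). With 1 start per gene, 5 starts were covered in RS4;11 and 4 in THP-1 cells, since fewer starts were counted. LMO2 and ETV6 were at least 2-fold larger in RS4;11 and RUNX2 in THP-1 cells under all 6 alternatives for the ratio. No paired analysis was possible because each group holds 1 sample and no result comes from a test. The files give no peak scores, so peak strength could not be used.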
